A study of Mus musculus with 6 samples.

Results

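The respiratory chain subunits encoded in the nucleus were followed in RNA from mouse corneas. All protein-coding genes of the deposited count files whose symbol begins with Nduf (letters a, b, c, s or v and a digit), Sdh (a to d), Uqcr, Cox4 to Cox8 or Atp5 were taken, which gave 85 of the 55421 genes listed. They comprise 37 genes of complex I, 4 of complex II, 8 of complex III, 18 of complex IV and 18 of complex V, the ATP synthase. The symbol Atp5o stands for a pair of gene IDs, one of which has 0 counts in every library, so the 85 genes carry 84 symbols. A further 12 genes whose symbols fit were annotated as pseudogenes or non-coding and were left out. The study profiled whole corneas of mice aged 20 weeks by RNA-seq of total RNA, with 3 libraries (M1, M2 and M3) from animals heterozygous for a Pax6 mutation and 3 (W1, W2 and W3) from wildtype animals. The labels name neither the mutant allele nor the sex or strain of the animals. Pax6 is a transcription factor required for the eye and the corneal epithelium, and its loss in the heterozygous state causes aniridia, whose corneal disease is aniridia-related keratopathy.

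Complexes I and II pass electrons from NADH and succinate to ubiquinone, complex III passes them on to cytochrome c, and complex IV hands them to oxygen. Complexes I, III and IV pump protons across the inner mitochondrial membrane, and complex V uses the returning protons to make ATP. The mitochondrial genome supplies core subunits of complexes I, III, IV and V, whereas complex II and all accessory subunits are made from nuclear genes. In the cornea the endothelium, which pumps fluid out of the stroma, is known for its dense mitochondria, and the epithelium for its reliance on glycolysis.

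Gene counts were 16858005 to 21846406 per mutant library and 17033330 to 18940934 per wildtype library. Pax6 itself fell to 454, 394 and 356 CPM (counts scaled to the same library total, after TMM correction) in mutant corneas, against 849, 746 and 774 CPM in wildtype corneas (log2 fold change -0.98 ± 0.14 SE, adjusted p = 0.004 by the quasi-likelihood test of edgeR). In a principal component analysis W1 lay apart from the other 5 libraries on the leading axis, with 50.05% of the variance. The same axis also separated the genotypes, with M1, M2 and M3 at -67.2, -39.2 and -57.4 and W1, W2 and W3 at 122, 23.2 and 18.3. The summed level of 5 melanocyte and iris markers was 235 to 413 CPM in mutant libraries, against 9.82 CPM in W1, 305 CPM in W2 and 187 CPM in W3. The 6 lens and retina markers summed to 34.1 to 62.0 CPM in mutant libraries, against 19.1 CPM in W1, 39.6 CPM in W2 and 1161 CPM in W3. The 10 skeletal muscle markers summed to at most 1.35 CPM in mutant libraries, against 0, 3.69 and 52.7 CPM in W1, W2 and W3. Tissue markers moved with genotype. Of 9 tested corneal epithelial markers, 6 fell, with the mutated gene Pax6 itself counted among them, and 1 rose. All 6 tested conjunctival and goblet cell markers, 5 of 8 keratocyte markers (1 fell) and 5 of 8 leukocyte markers rose. The shares over all tested genes were 5.59% higher and 4.46% lower. The keratocyte markers were uneven, summing to 4791, 1932 and 781 CPM in M1, M2 and M3, against 447 to 507 CPM in wildtype libraries. Krt12, the corneal epithelial keratin, had 4402, 7163 and 4145 CPM in mutant corneas, against 21773, 18278 and 15314 CPM in wildtype corneas. In RNA of a whole tissue, fewer cells of a type and less RNA per cell cannot be told apart, and the part of these shifts in the subunit values was not tested.

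Of the 85 subunit genes, 80 had enough counts to be tested, and as a group they lay at nearly the same level in the corneas of both genotypes. A single gene, Ndufa4l2, rose in mutant corneas and 0 fell (edgeR's quasi-likelihood test, adjusted p under 0.05 over 15209 genes). Over all tested genes, 5.59% were called higher and 4.46% lower, so that the 1.25% of subunit genes called higher lay below the background in that direction (the difference in share was not tested). At an unadjusted p under 0.05, 3 subunit genes were higher in mutant and 0 lower, against 13% and 10.8% of all tested genes. DESeq2 called 1 higher and 0 lower at its adjusted p, against 7.57% and 5.37% of all genes it tested, and limma-voom 0 and 0, against 5.96% and 4.72%. The median log2 fold change of the 80 genes was 0.05, beside 0.01 over all tested genes, with 45 genes above 0 and 35 below. It was 0.05 for complex I, -0.13 for complex II, 0.05 for complex III, 0.11 for complex IV and -0.01 for complex V. For 74 of the 80 genes the estimate was within 0.5 log2 units of 0. The 95% interval stayed inside a 2-fold change in either direction for 65 genes and reached it for the other 15, with a median half-width of 0.56 log2 units. A change smaller than 2-fold was thus not detectable for many of them at this spread. In simulated counts with changed genes drawn from all tested genes, the test called 18.6% of 2-fold and 58.2% of 4-fold changes. Those genes had the levels and spread of all tested genes, so these shares need not hold for the subunit genes. For the 15 genes whose interval reached 2-fold, larger changes could be missed as well. In 5 genes (6.25%) the 3 mutant libraries all exceeded the 3 wildtype libraries, against 17.1% of all tested genes, and in 0 genes they all lay below, against 14.7%. Those 5 genes, listed because they are so few, were Ndufa4l2, Ndufs1 and Ndufc1 of complex I, Uqcrc2 of complex III and Atp5a1 of complex V.

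**Figure D1:**
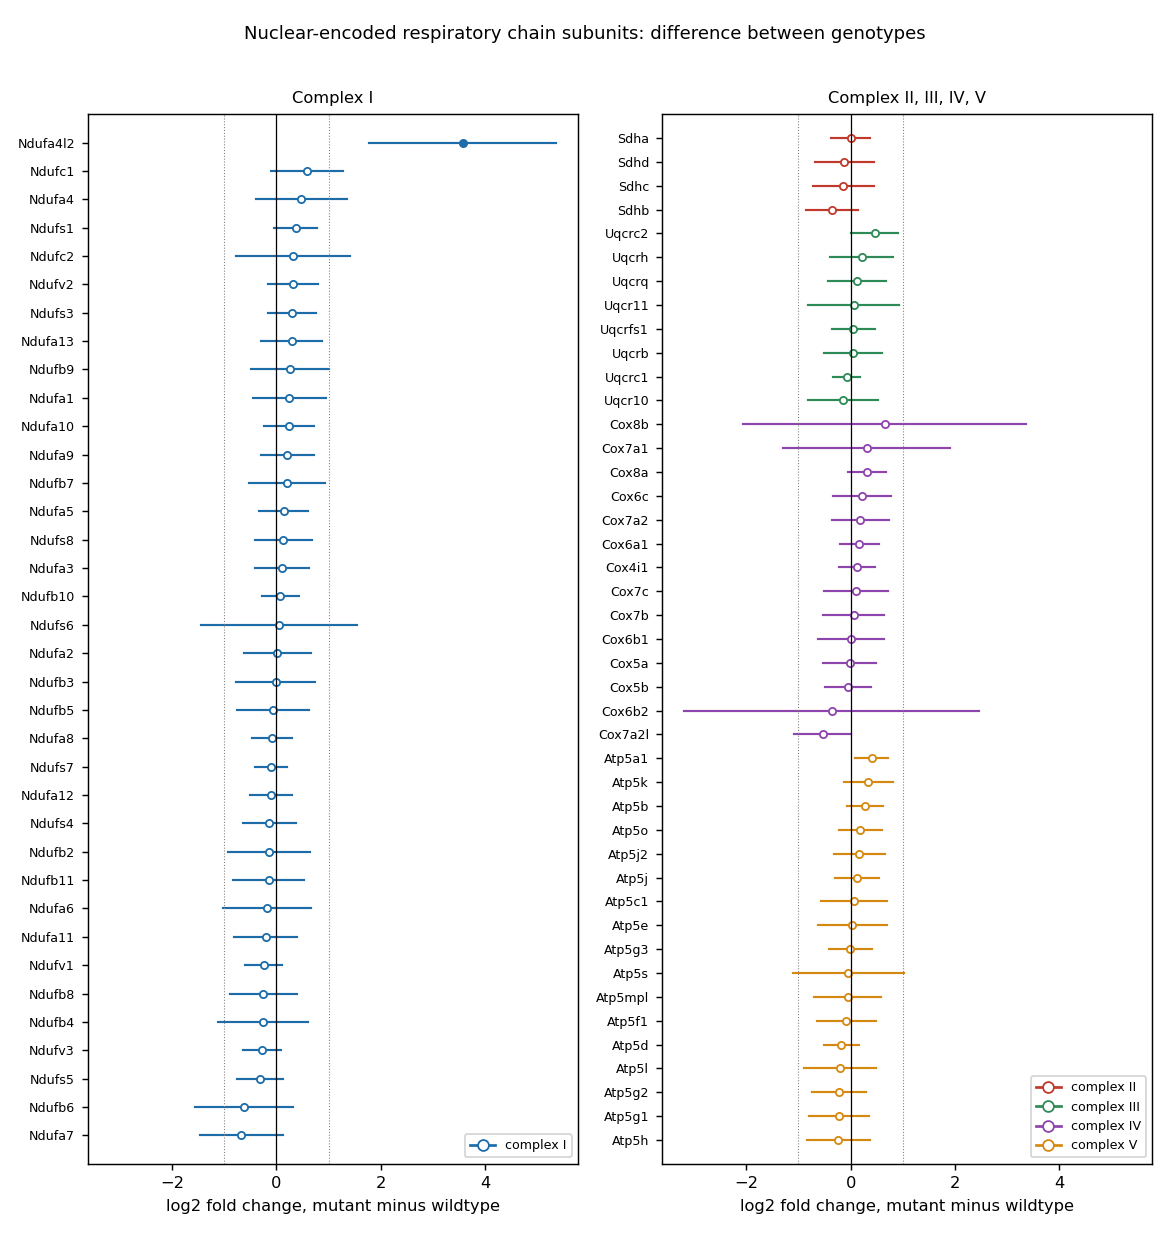
Log2 fold change (mutant minus wildtype, horizontal axis) of tested subunit genes, sorted within complexes, with bars for 95% intervals and dotted lines at 2-fold. The filled point, Ndufa4l2, is the single gene past adjusted p 0.05, and most intervals lie between the dotted lines.

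Ndufa4l2 (ENSMUSG00000040280, GRCm38 chromosome 10, 127514967 to 127517154, plus strand) encodes a homologue of Ndufa4 known from cultured cells as a target of the hypoxia-inducible factor that lowers complex I activity. It had 23, 61 and 58 counts in M1, M2 and M3, against 1, 4 and 6 counts in W1, W2 and W3, or 1.41, 3.38 and 2.61 CPM in mutant corneas and 0.0567, 0.227 and 0.321 CPM in wildtype corneas. Every mutant library was above every wildtype library. The wildtype counts were all below the 10 counts of the low-count filter, so the gene was tested only because of its mutant libraries. Its group separation is therefore no support beyond the test, and its fold change rests on wildtype counts near 0. Per kilobase its level, 1.43 CPM per kb over all libraries, was among the lowest of the tested subunit genes, above that of Cox6b2 (1.12) and Atp5s (1.34). The log2 fold change was 3.57 ± 0.78 (SE, n = 3 per group, adjusted p = 0.025, edgeR's quasi-likelihood test), an 11.8-fold difference with a 95% interval of 3.42-fold to 40.9-fold. Its exons share 32 bases with Shmt2 on the opposite strand, and whether the counting used strand is not stated in the submitters' processing notes. The call was lost with limma-voom (adjusted p = 0.081), without M2 (0.118), without M3 (0.113) and without W2 (0.076), while the log2 fold change stayed between 3.14 and 4.03 over 16 alternatives.

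Ndufa4 (chromosome 6, 11900292 to 11907497, minus strand), which was first assigned to complex I and is now known as a complex IV subunit, had 15.8, 13.3 and 18.0 CPM in mutant corneas, against 5.05, 15.2 and 13.6 CPM in wildtype corneas. The groups overlapped, with W1 far below the other 5 libraries (log2 fold change 0.48 ± 0.38, adjusted p = 0.51, edgeR's quasi-likelihood test). Per kilobase of transcript, Ndufa4l2 supplied 4.82%, 12.7% and 7.62% of the summed Ndufa4 and Ndufa4l2 level in mutant corneas, against 0.635%, 0.845% and 1.33% in wildtype corneas. Ndufa4 therefore made up most of the pair in every library.

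Ndufa4l2 is known to be abundant in pericytes, so the 9 smooth muscle and pericyte markers are given beside it. Their summed level was 509 to 748 CPM in mutant libraries, against 631 to 695 CPM in wildtype libraries. Of the 7 tested 1 rose (Abcc9) and 1 fell (Notch3), against 5.59% and 4.46% of all tested genes. Notch3 weighs heavily in the sum, with 277, 253 and 205 CPM in mutant corneas, against 617, 466 and 514 CPM in wildtype corneas. Among the 7 tested markers 6 had a log2 fold change above 0, with a median of 1.10, beside 0.01 over all tested genes. The pericyte gene Rgs5 had 47.6, 17.0 and 16.1 CPM in mutant corneas, against 0.227, 13.1 and 8.99 CPM in wildtype corneas. Kcnj8, another pericyte gene, had at most 0.918 CPM in mutant libraries and at most 1.14 CPM in wildtype libraries. None of the 9 markers was at 0 in all libraries, and the part of these cells in the Ndufa4l2 difference was not tested. Since Ndufa4l2 is a hypoxia target, 16 genes of the hypoxia response and the glycolytic switch were also read. Of these, 0 rose and 3 fell, against 5.59% and 4.46% of all tested genes, with a median log2 fold change of -0.23, beside 0.01 over all tested genes. DESeq2 called 1 higher and 4 lower, limma-voom 0 and 4, and at an unadjusted p under 0.05 there were 1 and 5. The gene higher at an unadjusted p was Pdk4, which moved against the list and had the largest log2 fold change of the 16 in either direction. It had 98, 14 and 69 counts in M1, M2 and M3, against 0, 11 and 2 counts in W1, W2 and W3 (3.72 ± 1.21, adjusted p = 0.097, edgeR's quasi-likelihood test). These counts were low and uneven, with M2 close to W2. Egln3, an oxygen-sensing prolyl hydroxylase that is itself a hypoxia target, fell to 82.9, 125 and 90.1 CPM in mutant corneas, against 511, 427 and 434 CPM in wildtype corneas (log2 fold change -2.20 ± 0.18, adjusted p = 0.001, edgeR's quasi-likelihood test), and was called in all 16 alternatives. Egln1, the main prolyl hydroxylase of the pathway, had 62.0, 68.5 and 65.5 CPM in mutant corneas, against 97.1, 94.5 and 91.4 CPM in wildtype corneas (-0.53 ± 0.11, adjusted p = 0.019). Pdk2, a kinase that restrains pyruvate dehydrogenase, had 65.1, 48.2 and 58.6 CPM in mutant corneas, against 85.5, 80.5 and 82.4 CPM in wildtype corneas (-0.53 ± 0.14, adjusted p = 0.046). In both genes the groups did not overlap, but the Egln1 call was lost without M1, M2, M3 or W2 (adjusted p of up to 0.088), and the Pdk2 call when any single library was left out (0.052 to 0.137). Among the classic targets, Ldha was at 119 to 192 CPM in mutant libraries and 158 to 177 CPM in wildtype libraries, and Slc2a1 at 105 to 131 CPM in mutant libraries and 79.3 to 118 CPM in wildtype libraries.

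**Figure D2:**
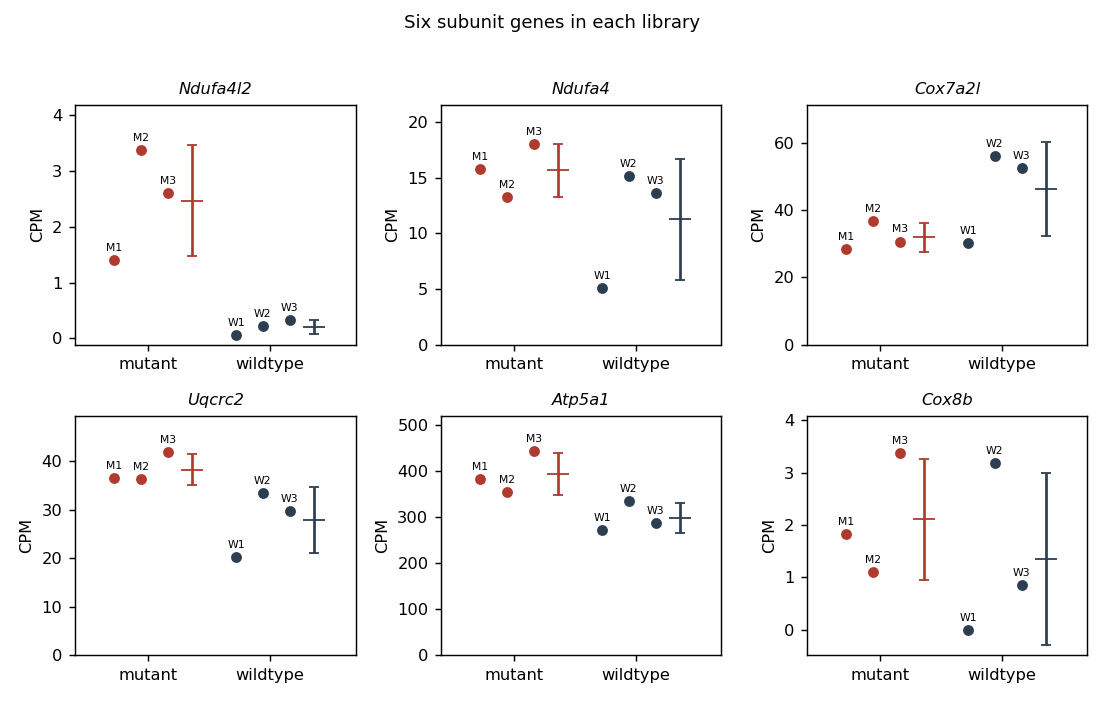
CPM of 6 subunit genes in each library (points, mutant M1 to M3 on the left and wildtype W1 to W3 on the right of each panel), with the group mean and SD beside them on axes that differ between panels. The groups are separate in Ndufa4l2, Uqcrc2 and Atp5a1, and overlap in Ndufa4, Cox7a2l and Cox8b.

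In complex I the gene with the highest level per kilobase was Ndufb10, an accessory subunit of the membrane arm, at 65.5 CPM per kb over all libraries. Apart from Ndufa4l2, its 36 other genes had log2 fold changes from -0.67 to 0.59. At the upper end was Ndufc1, a small accessory membrane subunit (chromosome 3, 51404677 to 51408988, minus strand), with 6.43, 7.38 and 8.51 CPM in mutant corneas, against 4.60, 4.09 and 6.15 CPM in wildtype corneas. The groups did not overlap, yet the difference was not past the threshold (0.59 ± 0.30, adjusted p = 0.28, edgeR's quasi-likelihood test). Ndufs1, the largest iron-sulphur subunit, through which electrons pass on their way from NADH, had 39.1, 42.0 and 46.3 CPM in mutant corneas, against 25.02, 38.0 and 35.8 CPM in wildtype corneas (0.37 ± 0.18, adjusted p = 0.27). Here W1 was far below the other wildtype libraries. Of the other catalytic core subunits, Ndufv1, which takes up electrons from NADH, had 39.6, 37.3 and 50.8 CPM in mutant corneas, against 49.0, 55.4 and 47.3 CPM in wildtype corneas. Its partner Ndufv2 had 27.8, 30.8 and 35.1 CPM in mutant corneas, against 19.1, 32.1 and 24.1 CPM in wildtype corneas. The groups overlapped in both, and neither passed the test, nor did the core subunits Ndufs3, Ndufs7 and Ndufs8. At the lower end, Ndufa7, an accessory subunit of the matrix arm, had 6.86, 5.22 and 4.41 CPM in mutant corneas, against 8.06, 12.2 and 5.99 CPM in wildtype corneas (-0.67 ± 0.35, adjusted p = 0.29). Ndufb6, an accessory subunit of the membrane arm, had 3.61, 4.77 and 4.14 CPM in mutant corneas, against 5.28, 10.1 and 3.96 CPM in wildtype corneas (-0.63 ± 0.41, adjusted p = 0.42). In both genes the groups overlapped and W2 was the highest library.

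Complex II oxidises succinate and is part of the tricarboxylic acid cycle as well as of the chain. Sdhb, its iron-sulphur subunit (chromosome 4, 140961203 to 140979193, plus strand), had both the highest level per kilobase, 32.3 CPM per kb, and the smallest p of the 4 genes. It had 32.0, 36.3 and 29.0 CPM in mutant corneas, against 29.1, 51.7 and 43.3 CPM in wildtype corneas. The mutant libraries lay close to W1 and below W2 and W3 (log2 fold change -0.35 ± 0.22, adjusted p = 0.38, edgeR's quasi-likelihood test). The flavoprotein Sdha, which holds the succinate site, had 82.0 to 103 CPM in mutant libraries and 74.96 to 107 CPM in wildtype libraries.

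In complex III, Uqcrb, a small subunit near the ubiquinone site, had the highest level per kilobase, 79.1 CPM per kb. Uqcrc2, a core subunit on the matrix side (chromosome 7, 120635176 to 120659524, plus strand), had 36.5, 36.3 and 42.0 CPM in mutant corneas, against 20.3, 33.5 and 29.8 CPM in wildtype corneas. All mutant libraries exceeded all wildtype libraries, with W1 lowest (0.46 ± 0.20, adjusted p = 0.21, edgeR's quasi-likelihood test). Its exons share 504 bases with Pdzd9 on the opposite strand. Uqcrc1, the partner core subunit, had 118 to 134 CPM in mutant libraries and 126 to 140 CPM in wildtype libraries, with W1 as the highest library and overlapping groups. Uqcrfs1, the Rieske iron-sulphur protein that passes electrons to cytochrome c1, had 27.4, 28.1 and 33.0 CPM in mutant corneas, against 23.4, 34.5 and 27.8 CPM in wildtype corneas, so the groups overlapped here too.

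Complex IV contains most of the tissue-type isoforms, pairs of genes that supply the same position of the enzyme in different tissues. Cox6c, an accessory subunit without a muscle form, had the highest level per kilobase of all 80 genes, at 159.9 CPM per kb. Cox4i1, an early-assembling nuclear subunit of the complex, had 79.8, 69.4 and 76.6 CPM in mutant corneas, against 56.8, 80.4 and 70.2 CPM in wildtype corneas, where W1 was again the lowest. The smallest p of the complex belonged to Cox7a2l (chromosome 17, 83501918 to 83517330, minus strand), also known as Scaf1, which links complexes III and IV into supercomplexes. It had 28.5, 36.7 and 30.7 CPM in mutant corneas, against 30.2, 56.0 and 52.6 CPM in wildtype corneas. The mutant libraries lay around W1 and well below W2 and W3 (log2 fold change -0.53 ± 0.24, adjusted p = 0.22, edgeR's quasi-likelihood test). Without W1 the log2 fold change was -0.77 and the adjusted p 0.014, without M1 and W1 -0.70 and 0.027, and with no low-count filter -0.54 and 0.035, so that these 3 of the 16 alternatives called it lower, against 5.28%, 4.84% and 3.96% of all genes called lower in the same 3 fits.

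The muscle isoform Cox8b (chromosome 7, 140898945 to 140900446, minus strand) had 1.84, 1.11 and 3.38 CPM in mutant corneas, against 0, 3.18 and 0.856 CPM in wildtype corneas (0.65 ± 1.18, adjusted p = 0.80, edgeR's quasi-likelihood test). The groups overlapped fully, and per kilobase it supplied 3.14% to 7.30% of the summed Cox8a and Cox8b level in mutant libraries and 0% to 8.43% in wildtype libraries. Cox7a1, the other muscle isoform with enough counts, supplied 7.26% to 11.9% of the Cox7a1 and Cox7a2 level in mutant libraries and 4.66% to 10.2% in wildtype libraries. The testis isoform Cox6b2 supplied 0.315% to 4.84% of its pair in mutant libraries and 0.341% to 5.77% in wildtype libraries, so that for all 3 isoforms the ranges overlapped. Of the genes too low to test, Cox4i2, the lung and hypoxia isoform of Cox4i1, had 0, 8 and 0 counts in mutant libraries and 0, 2 and 6 in wildtype libraries. Cox6a2, the muscle partner of Cox6a1, had 0 counts in all mutant libraries and in W1 and W2, and 3 counts in W3, the library with the highest skeletal muscle marker sum. Cox7b2, Cox8c and the second Atp5o gene ID had 0 counts in every library. A count of 0 allows up to 3 counts per library, which covers counting error only.

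Complex V consists of a catalytic head, a rotor ring in the membrane and a peripheral stalk that holds the head still. Atp5b, the catalytic beta subunit, had the highest level per kilobase of the complex, at 155 CPM per kb, with 284, 314 and 375 CPM in mutant corneas and 278, 294 and 234 CPM in wildtype corneas. Atp5a1, the alpha subunit (chromosome 18, 77773729 to 77782869, plus strand), had 383, 356 and 445 CPM in mutant corneas, against 272, 334 and 287 CPM in wildtype corneas. The groups of Atp5a1 did not overlap, with a log2 fold change of 0.41 ± 0.14, but the adjusted p was 0.11 (edgeR's quasi-likelihood test) and stayed above 0.05 in all 16 alternatives. Its exons share 129 bases with Haus1 on the opposite strand. Atp5h, subunit d of the peripheral stalk, had 82.0, 82.2 and 89.5 CPM in mutant corneas, against 61.6, 141 and 95.7 CPM in wildtype corneas. The wildtype libraries of Atp5h thus lay on both sides of the mutant ones, with W1 lowest and W2 highest. Atp5g1, Atp5g2 and Atp5g3 encode the same mature c subunit of the rotor ring behind different import sequences. Atp5g3 supplied 51.4% to 51.6% of their summed level per kilobase in mutant libraries and 41.4% to 56.0% in wildtype libraries, Atp5g2 41.6% to 42.4% in mutant libraries and 37.5% to 50.6% in wildtype libraries, and Atp5g1 6.03% to 6.77% in mutant libraries and 6.47% to 7.91% in wildtype libraries. The mutant shares of Atp5g3 and Atp5g2 thus lay inside the wildtype ranges.

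For many subunit genes the wildtype libraries differed more from each other than the genotypes did. The wildtype range enclosed the whole mutant range in 36 of the 80 genes (45.0%), against 18.9% of all tested genes. W1 was the lowest of the 6 libraries in 54 subunit genes (67.5%, against 28.8% of all tested genes), and W2 the highest in 47 (58.8%, against 14.6%). The mutant library M3 was the highest in 23 genes. W1 was the highest library in 4 genes, Atp5d, Ndufa8, Ndufs7 and Uqcrc1. Over the 80 genes the median of W1 was 1.47-fold below the mean of W2 and W3 (log2 difference -0.56), beside -0.06 over all tested genes. This difference lay between -0.52 and -0.62 in each of the 5 complexes. In all tested genes W1 was also lower where transcripts were short: for transcripts under 700 bases the median was -0.69 in the 33 subunit genes and -0.51 in all 703 genes of that class, from 700 to under 1200 bases it was -0.57 in 26 subunit genes and -0.35 in all 1166, and from 1200 bases it was -0.35 in 21 subunit genes and -0.02 in all 13334. The subunit genes were thus below the other genes in every length class. The part of transcript length and of the tissue markers in W1's values was not tested. When W1 was left out, the median log2 fold change of the 80 genes was -0.09 and 25 genes changed sign. When W2 was left out it was 0.23 and 16 changed sign.

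**Figure D3:**
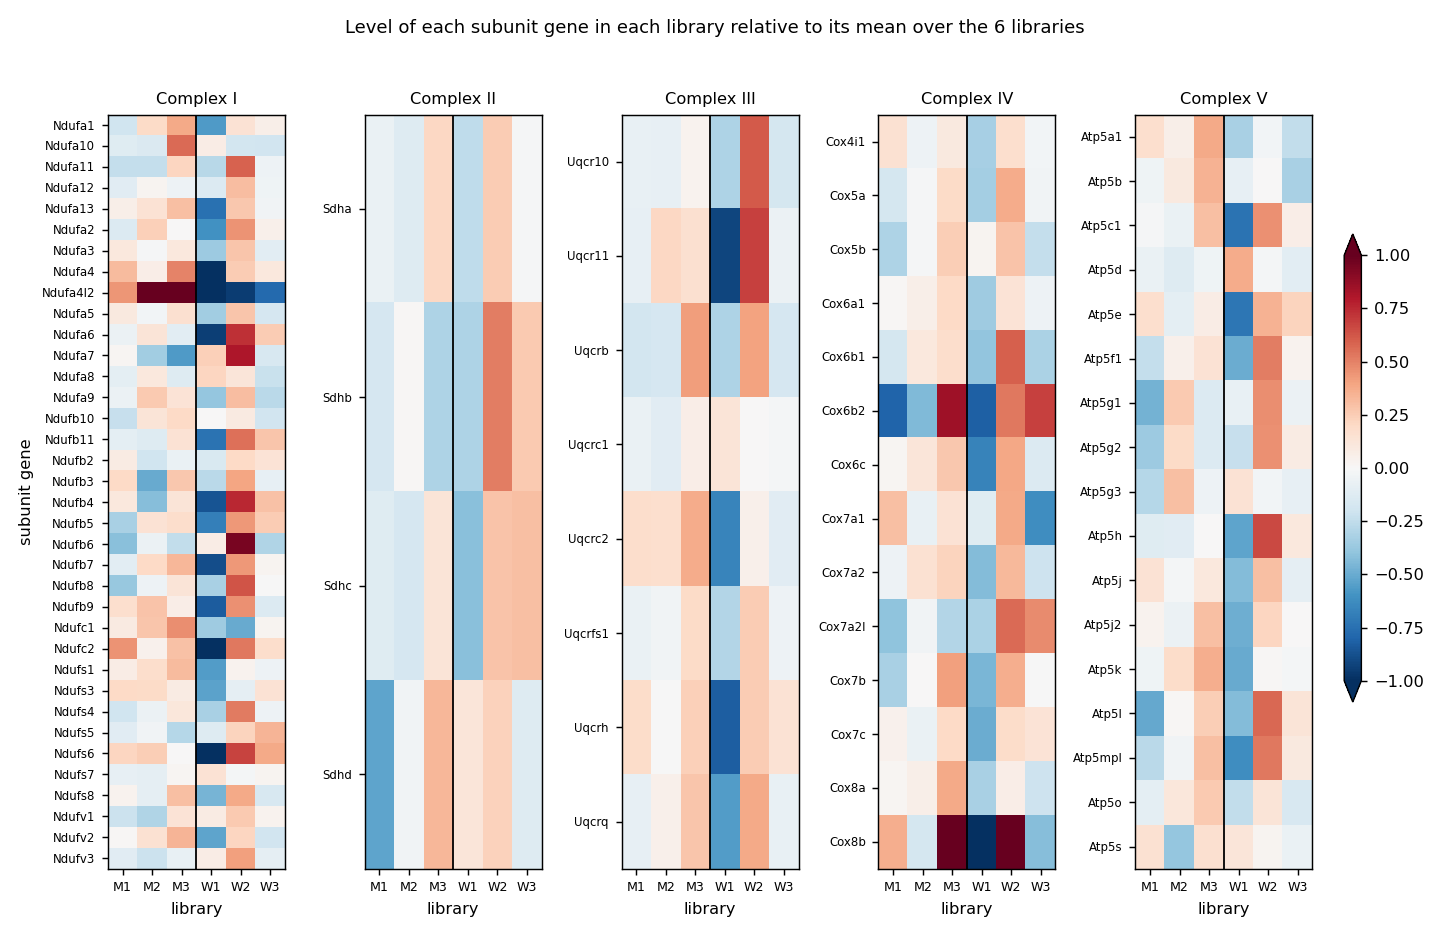
Log2 (CPM + 0.5) of tested subunit genes (rows, by complex) in each library (columns, mutant left of the line and wildtype right of it) minus the gene's mean over the 6 libraries, with the colour scale ending at 1 log2 unit. W1 is blue in most rows and W2 red; over all 80 tested genes W1 is the lowest library in 54 and W2 the highest in 47.

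In the summed levels W1 was the lowest library in all 5 complexes. Complex I summed to 785, 835 and 925 CPM in mutant corneas, against 664, 1018 and 816 CPM in wildtype corneas. Complex II summed to 142, 147 and 169 CPM in mutant corneas, against 133, 196 and 164 CPM in wildtype corneas. Complex III summed to 318, 315 and 373 CPM in mutant corneas, against 275, 375 and 315 CPM in wildtype corneas. W2 was the highest library in each of them. Complex IV summed to 428, 461 and 523 CPM in mutant corneas, against 344, 562 and 432 CPM in wildtype corneas. W2 was again the highest, so that in 4 of the 5 complexes the lowest and the highest library were both wildtype. Complex V summed to 1235, 1277 and 1476 CPM in mutant corneas, against 1056, 1407 and 1132 CPM in wildtype corneas. All 85 genes together averaged 3136 ± 293 CPM in mutant corneas and 2963 ± 551 CPM in wildtype corneas (SD, n = 3 each), a ratio of 1.06 that is small beside the spread.

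The promoter windows of some of these genes are shown as a description of their sequence. Whether the motifs in them go with the shared movement between libraries was not tested. RefSeq windows on GRCm38.p6, from 250 bases before to 50 bases after the gene start as RefSeq places it, were found for 66 of the 84 symbols. Motifs of the factors known to drive respiratory chain genes were searched on both strands. The NRF1 motif GCATGCG was present in 11 of the 66 windows (16.7%), against 4.01% of the windows of all 27025 genes and 6.99% of those of tested protein-coding genes. The ETS motif CCGGAAG, bound by GABP, was present in 16 (24.2%), against 9.93% of all genes and 19.3% of tested genes. The YY1 motif AAGATGG was present in 10 (15.2%), against 7.28% of all genes and 8.12% of tested genes. The motif of the hypoxia-inducible factor was searched too. As ACGTG it was present in 16 windows (24.2%), against 21.8% of all genes and 28.8% of tested genes. As GCGTG it was present in 36 (54.5%), against 35.2% of all genes and 55.4% of tested genes. Among the NRF1, ETS and YY1 motifs, matches of different motifs overlapped in 0 of the 66 windows. A match is a description of the letters only. The 4 windows printed here run 5′ to 3′ on the strand of the gene, and have the NRF1, ETS and YY1 matches in capitals. Cox6a1 and Cox8a are shown as genes of complex IV that were lowest in W1, Ndufc1 as one that was lowest in W2, and Cox7a2l as one that was lowest in M1.
Cox6a1, chr5:115348909-115349208, minus strand: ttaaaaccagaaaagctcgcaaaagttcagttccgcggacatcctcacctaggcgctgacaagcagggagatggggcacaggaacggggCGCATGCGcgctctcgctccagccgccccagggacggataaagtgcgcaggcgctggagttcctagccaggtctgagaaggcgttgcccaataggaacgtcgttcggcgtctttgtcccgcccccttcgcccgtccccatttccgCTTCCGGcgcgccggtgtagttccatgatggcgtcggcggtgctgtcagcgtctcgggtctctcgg
Cox8a, chr19:7217567-7217866, minus strand: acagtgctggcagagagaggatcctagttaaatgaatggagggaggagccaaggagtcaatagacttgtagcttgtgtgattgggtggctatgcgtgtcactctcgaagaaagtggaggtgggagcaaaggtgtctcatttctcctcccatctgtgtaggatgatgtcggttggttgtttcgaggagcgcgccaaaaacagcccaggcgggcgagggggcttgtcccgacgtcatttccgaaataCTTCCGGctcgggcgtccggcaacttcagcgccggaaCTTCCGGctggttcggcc
Ndufc1, chr3:51408906-51409205, minus strand: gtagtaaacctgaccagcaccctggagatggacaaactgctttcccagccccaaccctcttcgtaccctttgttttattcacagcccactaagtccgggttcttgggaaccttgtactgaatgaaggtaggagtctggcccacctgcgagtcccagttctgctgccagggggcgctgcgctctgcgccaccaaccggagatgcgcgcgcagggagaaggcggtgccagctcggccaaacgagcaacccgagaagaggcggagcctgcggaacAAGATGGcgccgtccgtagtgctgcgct
Cox7a2l, chr17:83514284-83514583, minus strand: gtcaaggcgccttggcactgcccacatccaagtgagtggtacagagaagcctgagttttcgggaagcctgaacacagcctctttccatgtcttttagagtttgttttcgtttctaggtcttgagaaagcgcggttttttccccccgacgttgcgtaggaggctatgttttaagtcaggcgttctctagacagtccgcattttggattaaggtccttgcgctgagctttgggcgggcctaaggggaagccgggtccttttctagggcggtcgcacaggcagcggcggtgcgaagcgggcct
The Cox6a1 window held an NRF1 stretch that matched on both strands and 1 ETS match, and Cox8a 2 ETS matches. Ndufc1 had 1 YY1 match just after the start of the gene, and Cox7a2l 0 matches to the NRF1, ETS and YY1 motifs. The Cox7a2l window lies inside the gene positions given above (83501918 to 83517330), so it does not cover the gene start at 83517330. Cox6a1 had 33.7, 34.8 and 38.4 CPM in mutant corneas, against 26.1, 37.0 and 32.4 CPM in wildtype corneas. Cox8a, the ubiquitous partner of Cox8b, had 51.0, 52.4 and 65.5 CPM in mutant corneas, against 40.1, 52.7 and 43.6 CPM in wildtype corneas. In both genes the mutant and wildtype ranges overlapped.

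The 13 genes for subunits encoded in the mitochondrial genome summed to 7003, 4673 and 5774 CPM in mutant corneas, against 3459, 3203 and 3930 CPM in wildtype corneas, and the groups did not overlap. The ratio of this sum to that of the nuclear subunit genes was 2.41, 1.54 and 1.67 in mutant corneas, against 1.40, 0.900 and 1.37 in wildtype corneas. No test was made of the difference between the mitochondrial and the nuclear genes. The 7 corneal endothelial markers moved with it: they summed to 1414 to 2053 CPM in mutant libraries, against 781 to 1036 CPM in wildtype libraries. All 7 had a log2 fold change above 0, with 1 past the threshold, against 5.59% of all tested genes called higher. Their part in the mitochondrial values was not tested. Of the 10 tested mitochondrial genes 3 rose and 0 fell, against 5.59% and 4.46% of all tested genes, and their median log2 fold change was 0.56. DESeq2 called 5 higher and 0 lower, limma-voom 4 and 0, and at an unadjusted p under 0.05 there were 5 and 0. The complex IV subunit mt-Co1 had 2649, 1866 and 2008 CPM in mutant corneas, against 1197, 1162 and 1407 CPM in wildtype corneas (0.79 ± 0.18, adjusted p = 0.027, edgeR's quasi-likelihood test). Also called were mt-Cytb, the complex III cytochrome b (0.78 ± 0.18, adjusted p = 0.034), and mt-Nd1, a core subunit of complex I (0.59 ± 0.14, adjusted p = 0.038). All 3 calls were lost when a trend with exon length and GC content was removed (adjusted p 0.196 for mt-Co1, 0.208 for mt-Cytb and 0.344 for mt-Nd1) and when M1, M3 or W2 was left out. With that trend removed the log2 fold changes were 0.56 for mt-Co1, 0.56 for mt-Cytb and 0.37 for mt-Nd1, the lowest of the 15 alternatives, and the median of all genes was -0.19, against 0.01 as reported. The call of mt-Co1 was also lost without M2, and the other two also without W3 and without M1 and W1 together. For mt-Co2, mt-Co3 and mt-Atp6 the files list at most 2.82 CPM in mutant libraries and at most 3.80 CPM in wildtype libraries. Pairs that align to several places are held in a summary line of 3.14% to 3.39% of all pairs in mutant libraries and 2.83% to 4.40% in wildtype libraries, and their part in these low values was not tested.

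**Figure D4:**
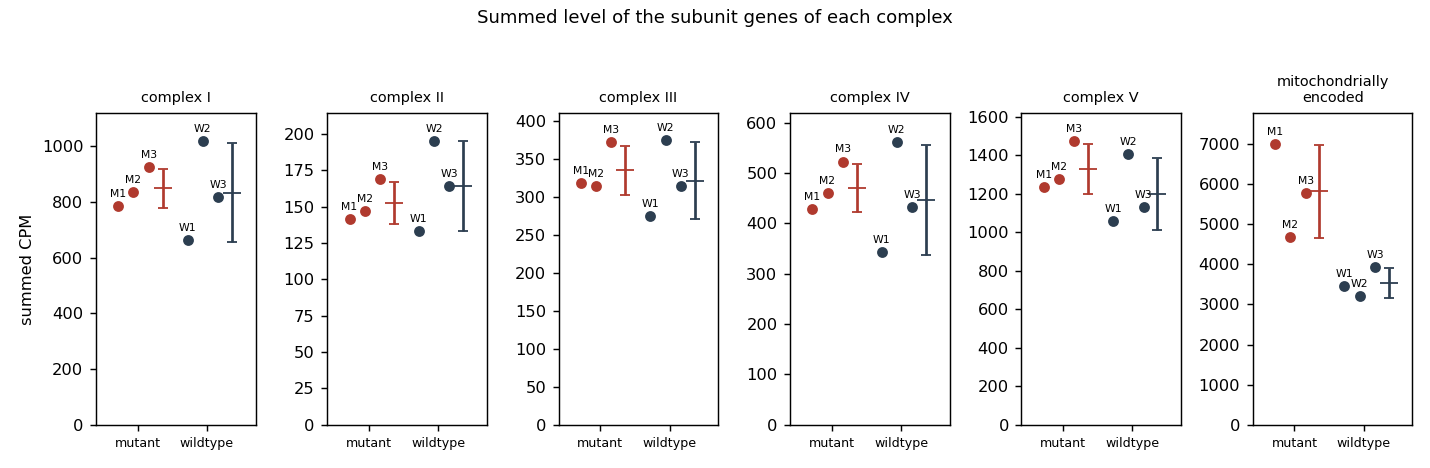
Summed CPM of the subunit genes of complexes I to V and of the mitochondrially encoded subunits (vertical axes start at 0 and differ between panels) in each library, mutant on the left and wildtype on the right, with group mean and SD. The groups overlap in all 5 nuclear panels; in the mitochondrial panel the mutant libraries, at 4673 to 7003 CPM, are above the wildtype libraries, at 3203 to 3930 CPM.

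The genes that build and regulate the chain were read from lists. Over all tested genes, 5.59% were called higher and 4.46% lower by edgeR. At an unadjusted p under 0.05 these shares were 13% and 10.8%. Of 50 assembly factors and other chain proteins, 47 were tested and 0 rose or fell (edgeR's quasi-likelihood test, adjusted p under 0.05), with 2 genes higher and 1 lower at an unadjusted p under 0.05, and a median log2 fold change of -0.15. DESeq2 and limma-voom also called 0 of them. The smallest p was that of Ndufaf5, a complex I assembly factor, with 3.24, 4.05 and 4.23 CPM in mutant corneas, against 1.87, 1.76 and 2.19 CPM in wildtype corneas (0.98 ± 0.39, adjusted p = 0.17). Timmdc1, another complex I assembly factor, had a log2 fold change of the opposite sign (-0.44 ± 0.19, adjusted p = 0.19). Of 17 tested genes of the tricarboxylic acid cycle and pyruvate dehydrogenase 0 rose or fell by edgeR, DESeq2 or limma-voom, with 1 gene higher at an unadjusted p under 0.05 and a median log2 fold change of 0.05. Pdha1, the catalytic subunit of pyruvate dehydrogenase, which Pdk2 phosphorylates, had the smallest p, with 128, 119 and 142 CPM in mutant corneas and 91.3, 107 and 93.1 CPM in wildtype corneas (0.42 ± 0.12, adjusted p = 0.074). Of 18 regulators of mitochondrial biogenesis 1 rose and 0 fell (0 also at an unadjusted p under 0.05 and by DESeq2 and limma-voom). With 1 gene, the share called higher was near the 5.59% of all tested genes. That gene, the coactivator Ppargc1b, had 22.3, 24.9 and 21.4 CPM in mutant corneas, against 14.5, 14.3 and 15.2 CPM in wildtype corneas (0.64 ± 0.16, adjusted p = 0.038), a call that was lost in 9 of 16 alternatives (DESeq2, no low-count filter, the length and GC trend removed, and without M1, M2, M3, W2, W3 or M1 and W1), with an adjusted p of up to 0.191. The genes for the factors of the NRF1, ETS and YY1 motifs above did not pass the test: Nrf1 had 27.0 to 28.2 CPM in mutant libraries and 29.6 to 33.3 CPM in wildtype libraries, Gabpa 57.7 to 63.5 CPM in mutant libraries and 65.9 to 67.5 CPM in wildtype libraries, and Yy1 75.05 to 86.3 CPM in mutant libraries and 80.3 to 90.9 CPM in wildtype libraries.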

How the data were processed

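Corneal RNA from 3 mutant and 3 wildtype libraries was analysed; the series design calls each set of 3 biological replicates. As deposited, each file gives unnormalized counts by Ensembl ID. The tools named in the submitters' processing notes are HISAT2, HTSeq, Trim Galore, SAMtools and edgeR, on the build GRCm38; their versions and the strand option of HTSeq are not stated there. Per the labels' protocols, the kit was a stranded one for low amounts of total RNA, read in pairs of 100 nucleotides. Summary lines (28.2% to 31.7% of pairs not aligned, 13.6% to 17.4% in no feature) were left out. Gene names, positions and overlaps came from GENCODE M21, which matched 55240 of 55421 IDs. Low counts were removed with filterByExpr (at least 10 counts, 15 in total); the rest were scaled by TMM and tested in R 4.3.3 with edgeR 4.0.16 (quasi-likelihood test, genotype only, Benjamini-Hochberg adjustment, threshold 0.05); the code was tested on simulated data. Levels per kilobase used principal transcript lengths. Of the 85 subunit genes, 30 share exon bases with another gene (26 on the opposite strand), so their counts are uncertain to that extent. Replicate pairs differed by 19.4 to 60.1 times sampling noise by chi-square over its degrees of freedom.

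Members and gene lists were chosen with earlier results of these data known. Named by rule are the genes past the threshold, and the highest level per kilobase and the smallest p in each complex. The rule also names isoform pairs, untested members and the 3 largest log2 fold changes each way. Of the other lists it names calls, genes of smallest p and genes that moved against their list. Genes shown for their place among libraries (Ndufs1, W1's 4 highest) or for their role (Sdha, Ndufv1, Ndufv2, Uqcrc1, Uqcrfs1, Cox4i1, Atp5h, single markers, Ldha, Slc2a1, motif factors) were chosen after their values were seen. Other settings tried were DESeq2 1.42.0, limma-voom (limma 3.58.1), RLE factors, upper-quartile factors, library totals alone, no low-count filter, a minimum of 1 CPM in 3 libraries, scaling without mitochondrial and structural RNA genes, a loess correction for length and GC (span 0.5), a threshold of 0.01, and leaving out each library or M1 and W1 together. The counts over all subunit genes include 1 complex I gene whose own values are not reported here and which is not drawn in the plots of single genes.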

Additional observations from a re-analysis of the deposited data

How the results depend on the processing

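The count of subunit genes higher in mutant was 1 in the analysis as reported, 0 with limma-voom, 0 at an adjusted p of 0.01, and 0 to 1 when single libraries were left out (0 without M2, M3 or W2). The count lower was 0, but 1 with no low-count filter, 1 without M1 and W1 together, and 0 to 1 when single libraries were left out (1 without W1). That gene was Cox7a2l each time. The median log2 fold change of the subunit genes ranged from -0.09 to 0.23 over leaving out single libraries and was -0.08 with the length and GC trend removed, where the median of all genes was -0.19. Medians moved by less than the spread between replicates in all alternatives run. Summed levels did so too, but were recomputed only with library totals alone and per kilobase, not with libraries left out. Apart from that of Pdk4, which was not followed through the alternatives, no named log2 fold change changed sign. By contrast, 0 to 25 of the tested subunit genes did, depending on the alternative. Depth limits the low isoforms, Ndufa4l2 among them. No paired analysis was possible because the labels give the groups no shared replicate numbers; M1 to M3 and W1 to W3 only follow the order of listing.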
